A study of Mus musculus with 15 samples.

Results

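The control libraries of this series are the reference for its treated libraries, each group within its own experiment. CT26 is a cell line from a chemically induced colon carcinoma of a BALB/c mouse, widely grafted into mice with an intact immune system. Of the 15 RNA-sequencing libraries of the series, 6 are controls. A group of 3 is labelled as wild type (WT) cells given vehicle, and is the reference for the PRMT1 inhibitors MS023 and GSK3368715. The other 3 are labelled as control knockdown cells with no treatment named, referred to as shControl, and are the reference for cells with an inducible hairpin against Prmt1 (shPrmt1). The shPrmt1 cells were made by lentiviral infection with puromycin selection and were given doxycycline, which switches the hairpin on. Whether the shControl cells carried the same vector or were given doxycycline, and what the vehicle was, is not given in the sources used here. Both groups share the line and differ in experiment. Any effect of vector, selection, doxycycline, vehicle or batch goes with that difference and cannot be told apart from it, and an adjusted p between them measures only the spread between the 3 libraries of each experiment.

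Each library was set to CPM, its reads per 1000000 reads counted over 34432 genes, which puts all 6 on 1 scale. Where values are given by library, those of vehicle 1, 2 and 3 come first and those of shControl 1, 2 and 3 after "against". The totals were 48766758, 73450043 and 49681893 reads in the vehicle libraries and 24210990, 29233738 and 19077556 in the shControl libraries. Vehicle 2 was the deepest and stood apart from vehicle 1 and 3. The 13 mRNAs encoded in mitochondria took 1.37% of its reads, against 2.76% and 2.68% in vehicle 1 and 3 and 2.58% to 2.85% in the shControl libraries, and it was the lowest vehicle library in all 49 interferon genes called below. Of the genes named or listed, 9 were called by limma without vehicle 2 and not with it, namely Ankrd1, B2m, Bbc3, Cd68, Col5a1, Csf1, Hsd17b7, Vegfa and Zdhhc1.

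Colon carcinoma lines are epithelial by origin, but many grow with a mesenchymal profile, in which adhesion genes such as Cdh1 are silent and cytoskeletal and matrix genes such as Vim and Fn1 are high. Tumor cells also carry the machinery that senses foreign or misplaced nucleic acid. Its sensors, cGAS for DNA and RIG-I and MDA5 for RNA, act through STING or MAVS on the kinase TBK1 and the factor IRF3 and induce type I interferon. Interferon binds its receptor on the same or neighbouring cells, and a complex that contains IRF9 then switches on the interferon-stimulated genes, which include the sensors themselves, so that cells can hold a low or a high resting level of the whole set.

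To see what both groups share, the genes were first compared by level. A total of 8315 genes stood at 10 CPM or more in all 6 libraries, and 10521 at 1 CPM or more. Between genes, levels are given as CPM per kilobase of exon. The highest was Eef1a1, the translation elongation factor, with 4571 ± 171 in vehicle and 4187 ± 79.6 in shControl (mean ± SD, n = 3). The next was Lgals1, which encodes the secreted lectin galectin-1, with 2959 ± 94.3 in vehicle and 3078 ± 88.8 in shControl CPM per kilobase. Cytoskeletal Actb, the chromatin protein gene Ptma, the ribosomal Rps3a1 and the chaperone Hsp90ab1 followed, and the median protein-coding gene tested stood at 7.50 CPM per kilobase over the 6 libraries. Of the 15 highest genes, 7 encode or resemble ribosomal proteins (Rps3a1, Rpl23a, Rplp1, Rpl8, Rpl41, Rps18-ps6 and Rps27rt). The remaining 3 were Ftl1, the light chain of the iron store ferritin, and the calcium-binding proteins S100a4 and S100a11. S100a4, known from motile and mesenchymal cells, stood at 1329 ± 59.9 in vehicle and 1607 ± 11.3 in shControl CPM per kilobase.

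The genes that varied least over the 6 libraries, among those with at least 50 CPM in each, were Stau1, Sh3glb1, Pabpc1, Wwc2, Mapk14, Cdc40, Smcr8, Stk16, Psip1 and Snx4. Smcr8, a regulator of autophagy, had 83.6, 83.6 and 86.1 CPM in the vehicle libraries and 83.1, 86.0 and 84.2 in shControl. Mapk14, the stress kinase p38 alpha, had 108, 112 and 110.1 against 111, 112 and 110.0 CPM. At the higher end, Pabpc1, the poly(A)-binding protein, had 3991, 3907 and 3952 against 4018, 3944 and 4002 CPM. The range over all 6 libraries was at most 0.057 on the log2 scale in these 10 genes.

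The labels call the cells mouse colon tumor cells, and the markers of colon epithelium were mostly missing from both groups. Of 16 such genes, 12 were under 0.5 CPM in every library, the gut galectin Lgals4 reached 0.684 CPM in 1 of them, and 3 passed the filter for testing. Krt20, an intestinal keratin, had 6.17, 7.38 and 5.88 CPM in vehicle and 9, 8.76 and 7.55 in shControl, and the gut cadherin Cdh17 2.54, 2.57 and 2.27 against 4.50, 4 and 3.62 CPM. Each of the 3 genes tested had the higher mean in shControl, and none was called by limma, edgeR or DESeq2, while all 3 had an unadjusted p under 0.05 (limma). That held for 58.1% of all 11557 genes tested, 38.8% with the higher level in vehicle and 19.3% in shControl. Cdx2, the master factor of intestinal identity, stayed between 0.161 and 0.413 CPM. Cdx1, Fabp1, Tff3, Car1, Chga and Hnf4a had no read in any of the 6 libraries, which allows up to 0.0408 CPM in the deepest library and 0.157 CPM in the shallowest, counting error alone.

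General epithelial genes gave the same picture. Epcam, Cldn3, Cldn4, Cldn7 and Esrp1 had no read in any library, Cdh1, which encodes E-cadherin, had 2 reads in all, and Krt8 stood at 0.0272 to 0.21 CPM. Of the 22 genes listed, 4 were tested, 2 had an unadjusted p under 0.05 (limma), and none was called by limma, edgeR or DESeq2. Krt18, the partner of Krt8, stood at 17.1, 15.4 and 14.6 CPM in vehicle and 28.4, 26.4 and 26.3 in shControl, and Tjp1, a scaffold of tight junctions, at 269, 357 and 332 against 257, 274 and 256 CPM. Of 30 mesenchymal genes, 22 were tested and 8 were under 0.5 CPM in all 6 libraries. Vim, the intermediate filament vimentin, had 3339, 3366 and 3115 CPM in vehicle and 3166, 3232 and 3265 in shControl, and the receptor kinase Axl 1072, 1062 and 1055 against 948, 907 and 941. Cdh2, which encodes N-cadherin, had 139.7, 163 and 152 against 160.1, 171 and 165 CPM, and the repressors of epithelial genes Zeb1 and Zeb2 averaged 43.3 and 123 CPM in vehicle. The smooth muscle genes Acta2 and Tagln stood at 0.141 CPM or less, and Postn, Thy1 and Lum of stromal cells had no read in any library. The share of genes under 0.5 CPM was thus 8 of 30 for the mesenchymal list, 12 of 16 for colon epithelium and 17 of 22 for epithelium.

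**Figure D1:**
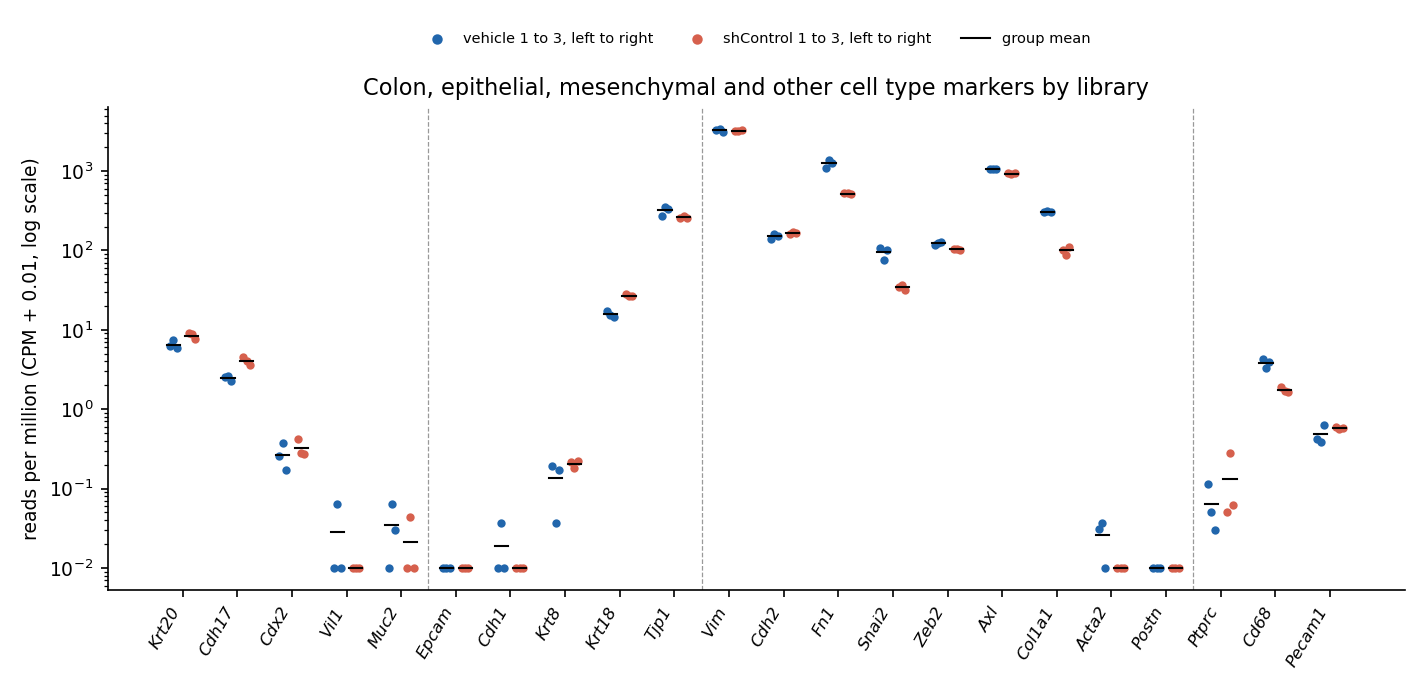
CPM plus 0.01 on a log axis for markers of colon epithelium, epithelium, mesenchyme and, last, leukocytes and endothelium, separated by dashed lines. Each dot is a library and each bar a group mean of 3. Vim and Axl stand near or above 1000 CPM in all 6 libraries, and Epcam and Postn have no read in any.

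Markers of leukocytes and endothelium were mostly under 0.5 CPM, while 3 of 9 genes of fibroblasts and pericytes stood well above it. Of 17 leukocyte markers, 15 stayed under 0.5 CPM in all 6 libraries, among them the pan-leukocyte gene Ptprc with 19 reads in all (9 in vehicle and 10 in shControl). The exceptions were Cd14 at 20.0 to 28.3 CPM and Cd68 at 3.83 ± 0.528 CPM in vehicle and 1.73 ± 0.146 in shControl (SD, n = 3), which differed by -0.95 on the log2 scale, or by -1.05 and called without vehicle 2. With all 6 libraries, edgeR (-1.05) and DESeq2 (-1.03) called Cd68 as well. The summed level of the 17 genes ran from 25.1 to 28.8 CPM in vehicle and from 25.4 to 30.9 in shControl, most of it Cd14. Without Cd14 it was 3.85 to 5.11 CPM in vehicle and 1.89 to 2.60 in shControl. The 8 endothelial markers summed to at most 1.15 CPM in any library. The 9 genes of fibroblasts and pericytes summed to 71.4 to 86.5 CPM in vehicle and 32.0 to 44.6 in shControl, and 3 were tested. Pdgfra stood at 16.2, 14.1 and 11 CPM against 6.36, 12.1 and 19.6 (-0.23, not called), and Pdgfrb and Pdpn are described with the matrix genes. Fap had a mean of 0.391 and 0.0275 CPM, and Dcn, Lum, Dpt, Cspg4 and Rgs5 were under 0.5 CPM in every library.

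Both groups carried the transcripts of dividing cells. All 25 proliferation genes were tested and none was called by limma, edgeR or DESeq2, although 14 had an unadjusted p under 0.05 (1 higher in vehicle and 13 in shControl, against 38.8% and 19.3% of all genes), with a median log2 difference of 0.14 (shControl minus vehicle). Top2a, the topoisomerase of dividing cells, had 708, 768 and 751 CPM in vehicle and 682, 711 and 677 in shControl, and the replication helicase subunit Mcm2 235, 203 and 209 against 223, 225 and 229. The largest difference on the list was that of Ccne1, cyclin E1, at 29.9, 37.9 and 30.8 against 50.4, 50.1 and 54.2 CPM, a log2 difference of 0.65 (adjusted p = 5.9e-04 from limma). Mki67 had 281, 464 and 409.6 CPM in vehicle, a spread wider than its distance from the shControl values of 388, 414 and 408.

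CT26 is known for loss of the Cdkn2a locus. Cdkn2a, which encodes the cell cycle inhibitor p16 and the p53 activator ARF, and its neighbour Cdkn2b had no read in any of the 6 libraries. Cyclin D1 (Ccnd1) had 777, 846 and 809.7 CPM in vehicle and 949, 913 and 963 in shControl. Trp53 averaged 159 ± 5.25 and 175 ± 10.5 CPM (SD, n = 3), and Cdkn1a, its best known target, 158 ± 1.59 and 155 ± 6.48. None of the 20 driver and suppressor genes tested was called by limma, edgeR or DESeq2, and 11 had an unadjusted p under 0.05 (limma), a share like the 58.1% of all genes. Prmt1 itself, the gene that the study silences or inhibits, had 262, 266 and 253 CPM in vehicle and 263, 272 and 266 in shControl, a log2 difference of 0.04 (adjusted p = 0.532 from limma). Of the 9 arginine methyltransferase genes, 8 were tested, 4 had an unadjusted p under 0.05 (limma) and none was called by limma, edgeR or DESeq2, and Prmt8 had 9 reads over the 6 libraries.

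With the shared profile set out, the groups were compared gene by gene. The distance of 2 libraries, as the root mean square log2 difference over 11557 genes, averaged 0.237 within vehicle (3 pairs), 0.243 within shControl (3 pairs) and 0.555 between the groups (9 pairs, 0.478 to 0.615). Every pair across the groups was thus farther apart than any pair within them, of which the widest was 0.282. For scale, vehicle and MS023 libraries lay 0.346 apart, vehicle and GSK3368715 libraries 0.291, and shControl and shPrmt1 libraries 0.409, each set of 9 pairs sharing its controls with the comparison here. Across genes, which are not independent, Spearman's rho of the group means was 0.978.

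The genes tested had at least 0.5 CPM in at least 3 of the 6 libraries, and the test was limma on log2(CPM + 0.5), two-sided, with Benjamini-Hochberg adjustment. A gene was called at an adjusted p under 0.05 with at least a 2-fold difference. On this scale, which understates the difference of low genes, 614 of 11557 genes were called (5.31%). Of these, 579 were higher in vehicle (5.01%) and 35 were higher in shControl (0.303%). The smaller count moved with the method, to 106 with edgeR, 112 with DESeq2, 74 and 15 with pseudocounts of 0.1 and 2, 19 with a minimum of 5 CPM, and 54 without vehicle 2. Only 1 gene was called at 4-fold or more in the direction of shControl, against 111 in that of vehicle. Without the minimum fold, 3998 genes were higher in vehicle and 1888 in shControl, and 9697 genes (83.9%) differed by under 1.5-fold. No overlap between vehicle and shControl libraries was seen in 608 of the 614 called genes, and in 60.8% of all genes tested. The median difference of all genes was -0.11, which became -0.02 with TMM scaling and 0.00 with the median-ratio scaling of DESeq2. Of the genes called, 61 passed the filter through vehicle alone and 7 through shControl alone, which fixed their direction.

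**Figure D2:**
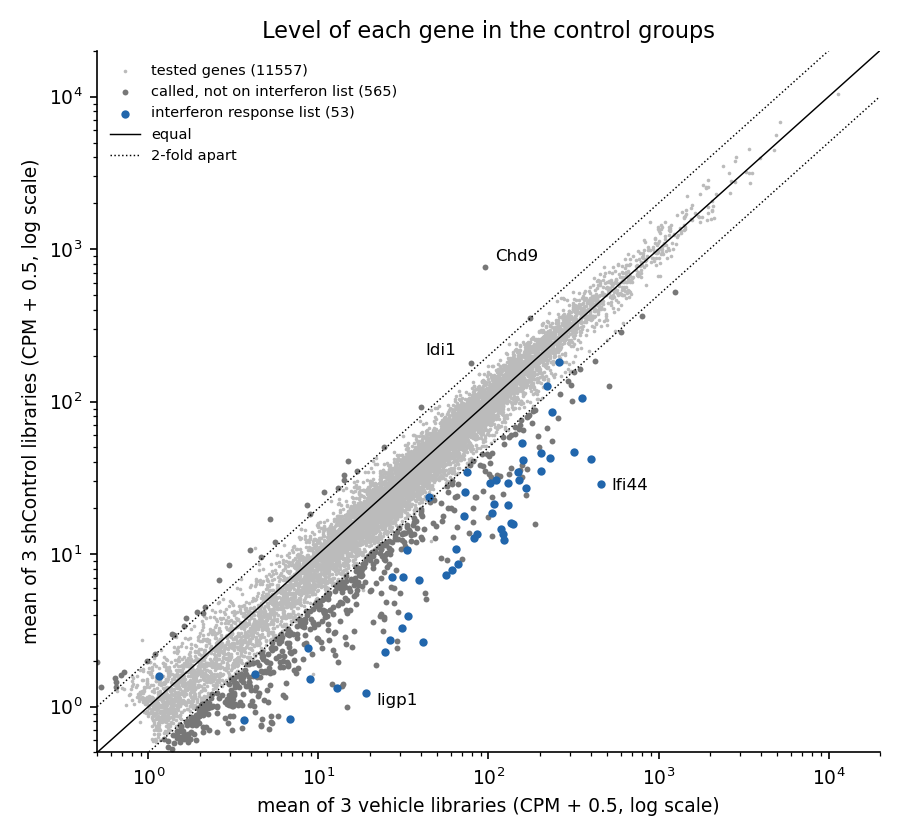
Mean of the 3 shControl libraries against that of the 3 vehicle libraries for the 11557 genes tested, as CPM plus 0.5 on log axes. Blue dots are the 53 interferon response genes, dark dots the other called genes, and dotted lines mark 2-fold. Of the interferon genes, 52 lie below the line of equal level and Epsti1 lies above it. Chd9, which is not an interferon response gene, is labelled above the line.

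The interferon response had the lowest median of all lists. Of the 111 genes at 4-fold or more in the direction of vehicle, 37 were on its list. Of 56 genes on the list, 53 were tested and 49 were called higher in vehicle, against 5.01% of all genes, and none was called higher in shControl. The median log2 difference was -2.52, against -0.11 over all genes. In 52 of the 53 every vehicle library was above every shControl library, as in 39.8% of all genes. Summed over the list, the level was 5104 to 6813 CPM in vehicle and 1322 to 1357 in shControl. Mx1 and Gbp4 passed the filter through vehicle alone. Without vehicle 2, the 51 genes still tested gave 47 calls with a median of -2.61.

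Some of these genes carry in their promoters the sequence that the IRF9 complex is known to bind, the interferon-stimulated response element, whose core is GAAANNGAAA. The stretches that hold at least 2 overlapping or neighbouring copies of the core, on either strand and within the 250 bases before the transcript start, are shown for the interferon genes called higher in vehicle, with the matching bases in capitals.
Isg15: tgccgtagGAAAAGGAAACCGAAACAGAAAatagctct
Ifit1: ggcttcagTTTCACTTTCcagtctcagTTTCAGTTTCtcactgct
Ifit3: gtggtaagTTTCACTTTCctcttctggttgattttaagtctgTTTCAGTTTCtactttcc
Oas1a: cttctcggGAAATGGAAACTGAAAatct
Bst2: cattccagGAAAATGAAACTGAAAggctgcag
Gbp3: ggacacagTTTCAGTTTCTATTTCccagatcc
Irgm1: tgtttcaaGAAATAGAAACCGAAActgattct
The sequences are from RefSeq on GRCm38.p6 (mm10) and read 5′ to 3′ along the gene, where TTTCNNTTTC is the core on the opposite strand. Isg15 (chr4:156200867-156200904), Oas1a (chr5:120907526-120907553), Bst2 (chr8:71537579-71537610) and Irgm1 (chr11:48871427-48871458) lie on the minus strand. Ifit1 (chr19:34640777-34640821), Ifit3 (chr19:34583365-34583424) and Gbp3 (chr3:142559991-142560022) lie on the plus strand. All 7 stretches are upstream of the annotated start of their transcript.

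Of the 49 interferon genes called, 36 had a promoter in the table, and 18 of these held at least 1 match. The share was 3.37% of the 8898 genes tested that had a promoter, and 3.46% of all 27025 genes in the table. Among all genes called higher in vehicle it was 14.0% (60 of 430), and among those called higher in shControl 1 of 17. A match is a description of the letters, not a bound site. Ifi44, Irf7 and Oasl2 had no match in this window, and Usp18, Zbp1, Iigp1, Gm4951, Gvin2 and Gbp9 had no entry.

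Ifi44 (ENSMUSG00000028037, chromosome 3, 151730922 to 151749960), an antiviral gene with a GTP-binding fold, had the largest difference fitted on log2(CPM + 0.5) of the called genes with 10 CPM or more. Folds of the group means were larger for Gm4951 (28.4), Iigp1 (25.1) and Ifit3 (18.9). Ifi44 stood at 558, 345 and 464 CPM in vehicle and 29.2, 28.3 and 27.5 in shControl, 16.1-fold apart (log2 difference -3.96, standard error 0.14, adjusted p = 4.8e-07 from limma). The shControl libraries lay within 2 CPM of each other, while the vehicle libraries spread over more than 200 CPM with vehicle 2 the lowest, and without vehicle 2 the log2 difference was -4.14. Ifit1, which binds RNA without a host cap, had 193, 138 and 166 against 26.4, 25.1 and 27.9 CPM (-2.61, adjusted p = 7.9e-07). Ifit3 had 51.0, 28.9 and 42.0 against 1.86, 1.98 and 2.62 CPM, and its near-identical copy Ifit3b 34.1, 22.3 and 28.8 against 2.23, 1.4 and 2.10. Reads may have been divided between these 2 genes, and their sum differed by -3.91 on the log2 scale. Ifit2, the other IFIT gene of the list, differed less, with 79.7, 69.0 and 74.5 against 33.0, 35.2 and 33.7 CPM (-1.12, adjusted p = 6.2e-06).

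Isg15, the ubiquitin-like modifier, had 159.6, 108 and 121 CPM in vehicle and 20.6, 20.9 and 20.0 in shControl, 6.32-fold apart (adjusted p = 1.5e-06 from limma). Usp18, the protease that removes it and dampens the receptor, had 169.7, 102 and 133 against 17.1, 15.7 and 13.8 CPM. The oligoadenylate synthetases make the second messenger that activates RNase L, and Oas3 stood at 255, 196 and 239.6 against 43.2, 41.0 and 42.7 CPM. Oasl2, a relative of this family, had 466, 294 and 438 against 41.9, 39.5 and 43.5 CPM, a 9.59-fold difference. Bst2, the tetherin that holds budding virus at the surface, and Rsad2, the antiviral enzyme viperin, differed 5.90-fold and 8.29-fold. Zbp1, a sensor of left-handed nucleic acid, had 32.8, 16.2 and 23.4 against 1.53, 1.44 and 2.36 CPM (adjusted p = 1.4e-05). The effectors, interferon-inducible GTPases aside, thus stood between 2.19-fold (Ifit2) and 18.9-fold (Ifit3) higher in vehicle among those described.

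The interferon-inducible GTPases, which attack the vacuoles of intracellular pathogens, were higher in vehicle as well. Gbp7 had 150.2, 116 and 150.3 CPM in vehicle and 15.9, 13.8 and 16 in shControl (-3.14, adjusted p = 3.5e-07 from limma), and Gbp3 149.8, 93.3 and 121 against 13.8, 12.2 and 12.9 CPM. Gvin2 had 190.2, 161 and 212 against 15.1, 15 and 15.7 CPM, a 12.3-fold difference. Iigp1 and Gm4951, of the same family, were close to silent in shControl, at 0.867, 0.547 and 0.786 CPM for Iigp1 against 21.1, 14.3 and 19.9 in vehicle and at 0.620, 0.513 and 0.367 CPM for Gm4951 against 17.2, 10.2 and 15.2. Irgm1, a regulator of these GTPases, differed less, with 173, 146 and 160.3 against 42.9, 37.8 and 41.7 CPM. Gbp9 and Tgtp1 differed by -3.52 and -3.26, and Trim30d, a TRIM gene and not a GTPase, by -3.33. Gbp9 shares 60 bases of exon with Gbp4, which differed in the same direction, and Tgtp1 with its copy Tgtp2 summed to a difference of -3.05.

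The transcription factors that carry the signal differed as well. Stat2 had 166, 128 and 156 CPM in vehicle and 28.1, 31.1 and 31.6 in shControl (-2.29, standard error 0.10, adjusted p = 9.0e-07 from limma), and its partner Irf9 83.7, 61.6 and 71.7 against 25.1, 25.3 and 24.4. Irf7 (ENSMUSG00000025498, chromosome 7, 141262706 to 141266481), the factor that amplifies interferon production and is itself induced by it, had 154, 94.0 and 122 against 13.5, 10.9 and 11.1 CPM, a 10.4-fold difference. Irf1, which responds mainly to interferon gamma, was below the 2-fold minimum, with 47.8, 40.9 and 43.3 against 23.4, 23.7 and 22.9 CPM (-0.90, adjusted p = 3.6e-05). Trim25 (-0.82) and Samhd1 (-0.52) were not called either, and Epsti1, under 2 CPM in all libraries, was the only gene of the list with the higher mean in shControl (0.41, adjusted p = 0.135).

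**Figure D3:**
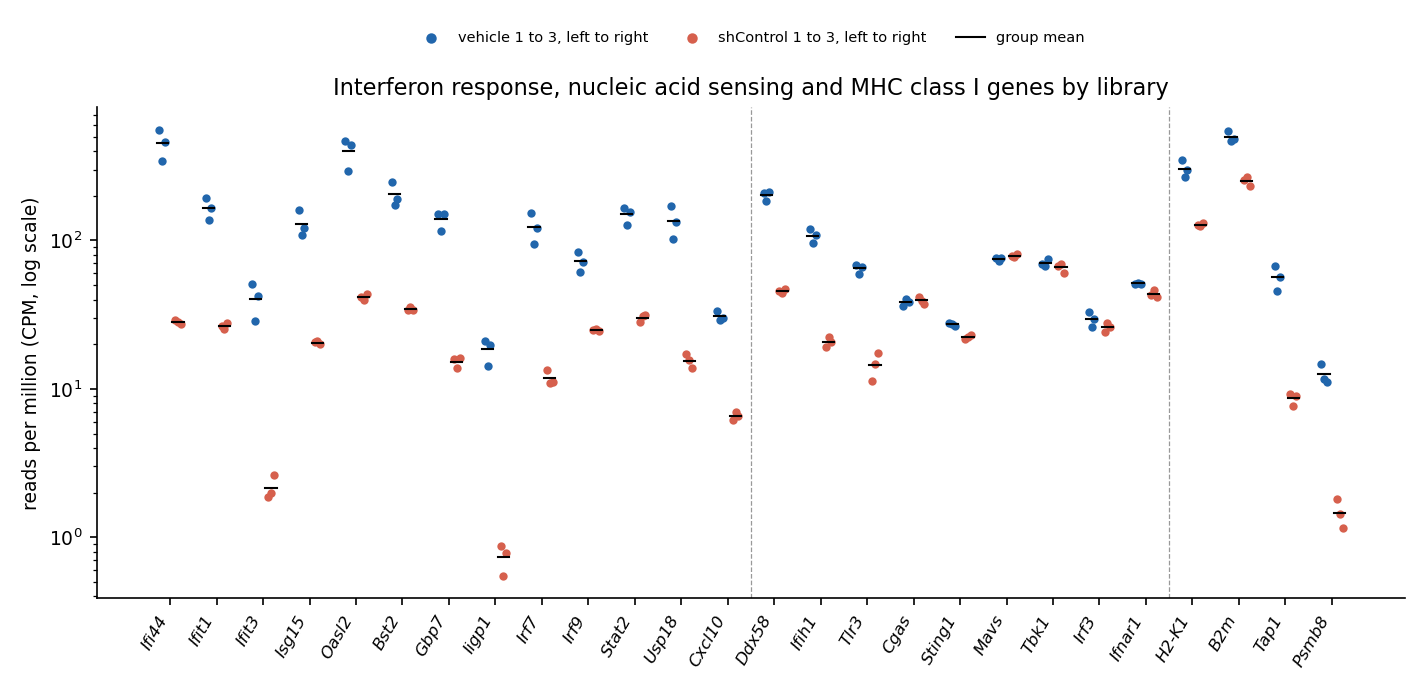
CPM on a log axis for interferon response genes (left), nucleic acid sensing genes (middle) and genes of MHC class I (right). Each dot is 1 library and each bar a group mean of 3. The vehicle libraries lie above all shControl libraries in the left panel and overlap with them in Cgas, Tbk1 and Irf3.

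Upstream of these factors, the genes divided. The RNA sensors that interferon induces were higher in vehicle, with Ddx58 (RIG-I) at 210.4, 186 and 213 against 45.5, 44.3 and 46.8 CPM (-2.14, adjusted p = 2.4e-07 from limma), Ifih1 (MDA5) 5.21-fold apart and Dhx58 (LGP2) 9.66-fold apart. The DNA sensor cGAS was not. Cgas (ENSMUSG00000032344, chromosome 9, 78430526 to 78443237) had 36.4, 40.2 and 38.6 CPM in vehicle and 41.8, 39.2 and 37.5 in shControl, a log2 difference of 0.04 (standard error 0.0703, adjusted p = 0.675). Mavs had 76.0, 72.9 and 76.2 against 78.1, 77.4 and 81.5 CPM, Tbk1 69.7, 67.1 and 75.0 against 67.5, 69.9 and 60.7, and Irf3 33.1, 26.1 and 29.5 against 24.1, 27.7 and 26.0. The groups overlapped in Cgas, Tbk1 and Irf3 and not in Mavs (0.07, adjusted p = 0.278). Sting1 stood at 27.6, 27.6 and 26.3 against 21.7, 22.3 and 23.2 CPM (-0.27, adjusted p = 0.00949), under the 2-fold minimum. The receptor chains Ifnar1 (-0.24) and Ifnar2 (-0.38) and the kinases Jak1 (-0.27) and Jak2 (0.32) were also within 2-fold.

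Of the 27 nucleic acid sensing genes tested, 5 were called, all higher in vehicle (5.01% of all genes), with a median of -0.27. Ddx58, Ifih1 and Dhx58 were kept on the interferon list and do not enter this count. Tlr3, the endosomal receptor for double-stranded RNA, had 68.5, 59.6 and 66.7 CPM in vehicle and 11.3, 14.7 and 17.6 in shControl (-2.14, adjusted p = 8.2e-06 from limma). Adar, which edits such RNA, differed by -1.10, a call that was lost with median-ratio scaling and with DESeq2. Ifi204, a DNA-binding protein of the Ifi200 family, differed by -1.19 alone and by -1.4 with the similar genes Mndal and Ifi211. Irf5, a factor downstream of such receptors, was called at 2.42 ± 0.129 and 0.621 ± 0.123 CPM (SD, n = 3), and not with a pseudocount of 2. Trex1, the nuclease that clears cytosolic DNA, was called at -1.14 (adjusted p = 0.00512), but shares sequence with Atrip, and the 2 together differed by -0.30. Its call was also lost with a pseudocount of 2 and without vehicle 1 or shControl 3. Interferon beta itself was close to undetected, Ifnb1 having 26 reads in the vehicle libraries and 1 in shControl. It was not tested.

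The presentation of peptides on MHC class I is among the best known outputs of interferon. Of 20 genes of this pathway, all tested, 10 were called higher in vehicle (5.01% of all genes; 9 with edgeR or DESeq2) and none higher in shControl, with a median of -1.02. Psmb9, 1 of the 10, passed the filter through vehicle alone, which fixed its direction. The heavy chain gene H2-K1 had 348, 269.6 and 297 CPM in vehicle and 127, 126 and 131 in shControl (-1.24, adjusted p = 1.1e-05 from limma), and H2-D1 676, 535 and 587 against 279.9, 276 and 299.7 (-1.06, a call lost with TMM or median-ratio scaling, with edgeR or DESeq2, and without vehicle 1). B2m, the shared light chain, had 547, 467 and 482 against 257, 269 and 233 CPM and was just under the 2-fold minimum (-0.98), or past it without vehicle 2 (-1.02, called). Tap1, a subunit of the peptide transporter, had 67.2, 46.0 and 56.5 against 9.21, 7.70 and 8.96 CPM (-2.63, adjusted p = 1.8e-06), and Tapbp, which loads the peptide, 256, 187 and 220.3 against 68.4, 62.9 and 69.8. The immunoproteasome subunit Psmb8 had 14.7, 11.7 and 11.2 against 1.82, 1.44 and 1.15 CPM, an 8.53-fold difference, whereas Psmb10, the third inducible subunit, had 17.5, 16.7 and 15.9 against 14.3, 13.5 and 15.5 (-0.20, adjusted p = 0.0746).

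The MHC activator Nlrc5 had 12.8, 5.13 and 12.3 CPM in vehicle and 1.73, 3.66 and 0.367 in shControl, a wide spread in both groups (-2.30, adjusted p = 0.00601 from limma), and without vehicle 2 the difference was -2.70. Leaving out shControl 3, the lowest of its group, makes the difference of Nlrc5 smaller instead. The chaperones of the pathway ran the other way. Calr, Canx and Pdia3 had their higher means in shControl, at 0.76, 0.30 and 0.48, and none was called. Heavy chain genes are a polymorphic family of similar sequence, and BALB/c alleles differ from the C57BL/6 reference, so the division of reads among them is uncertain. Of 7 genes of MHC class II, 2 were tested. Ciita, H2-Aa, H2-Ab1 and H2-Eb1 were at the limit of detection, at 0.0681 CPM or less in all libraries. H2-DMa was tested and not called (-0.30). The invariant chain Cd74 was called (-1.28) at 1.09 CPM or less, having passed the filter through vehicle alone, and not with a pseudocount of 2.

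The ligands through which tumor cells restrain or activate immune cells gave a divided result. Of 20 listed, 10 were tested and 4 were called, all higher in vehicle (5.01% of all genes). Cd274, which encodes PD-L1, had 12.1, 8.59 and 10.7 CPM in vehicle and 3.80, 3.11 and 3.25 in shControl, 3.09-fold apart (-1.49, standard error 0.14, adjusted p = 6.8e-05 from limma). The groups did not overlap, and vehicle 2 was again the lowest of its group. Lgals9, the galectin that binds TIM-3, had 152, 119 and 136 against 59.1, 57.9 and 61.5 CPM, Nectin2 42.4, 31.4 and 37.1 against 16.2, 14.8 and 16.6, and Cd276 22, 25.1 and 21.4 against 9.58, 10.1 and 11.2. Cd47, the signal against phagocytosis, stood at 223 ± 23.8 and 136 ± 4.82 CPM and was within 2-fold (-0.71). The ligands of the activating receptor NKG2D had the higher mean in shControl, with H60b at 0.70 and Ulbp1 at 0.23, as had Tnfsf9 at 0.30, and none of these was called. Pdcd1lg2, Cd86, Nt5e, Ido1 and Raet1e had no read in any library.

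Among 26 chemokines, cytokines and colony factors, 9 were tested and 4 were called, all higher in vehicle (5.01% of all genes). Ccl2, 1 of the 4, passed the filter through vehicle alone, which fixed its direction. Cxcl10, which draws T cells, had 33.3, 29.1 and 30.2 CPM in vehicle and 6.20, 7.01 and 6.60 in shControl (-2.14, adjusted p = 7.9e-07 from limma). Ccl5 had 3.9, 3.49 and 3.74 against 0.991, 1.20 and 1.21 CPM, Cxcl1 3.30, 3.08 and 3.32 against 1.12, 1.13 and 1.15, and Ccl2 1.78, 1.46 and 1.51 against 0.207, 0.445 and 0.0524. Only Cxcl10 of these 4 kept its call with a pseudocount of 2, the others standing under 4 CPM. The macrophage factor Csf1 was much more abundant, at 634, 435 and 585 against 291, 265 and 313 CPM, and Vegfa stood at 344, 243 and 321 against 154, 152 and 161, both under the 2-fold minimum (-0.91 and -0.94). Without vehicle 2, the lowest of its group in both, they were called at -1.08 and -1.09. NF-kB targets had a median of -0.27 over 18 genes tested. Of these, 13 were higher in vehicle and 1 in shControl at an unadjusted p under 0.05 (limma; 38.8% and 19.3% of all genes), and none was called by limma, edgeR or DESeq2.

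Since the study compares interferon genes within each experiment, their levels were also set side by side over all 5 groups. The levels come from tables that were normalized separately, whose scaling CPM cancels, and each treated group shares its control with the comparison above, so no test is given. Ifi44 stood at 652, 698 and 698 CPM with MS023 and 610.3, 855 and 605 with GSK3368715, above vehicle, and at 137, 184 and 138 CPM in shPrmt1 cells, above shControl but below each vehicle library. Irf7 had 42.4, 42.7 and 41.3 CPM in shPrmt1 cells against 94.0 to 154 in vehicle. In 52 of the 53 genes tested, the highest shPrmt1 library was below the lowest vehicle library, as in 33.8% of all 11557 genes. Taking each gene's mean, the median level in shControl was 16.3% of that in vehicle, and in shPrmt1 42.8%. The mean of shPrmt1 lay above that of shControl and below that of vehicle in 51 of the 53 genes, as in 24.4% of all genes. This order requires vehicle above shControl, which by mean log2 level held in 52 of the 53 and in 61.8% of all genes. Part of the contrast was thus set by the difference between the control groups.

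**Figure D4:**
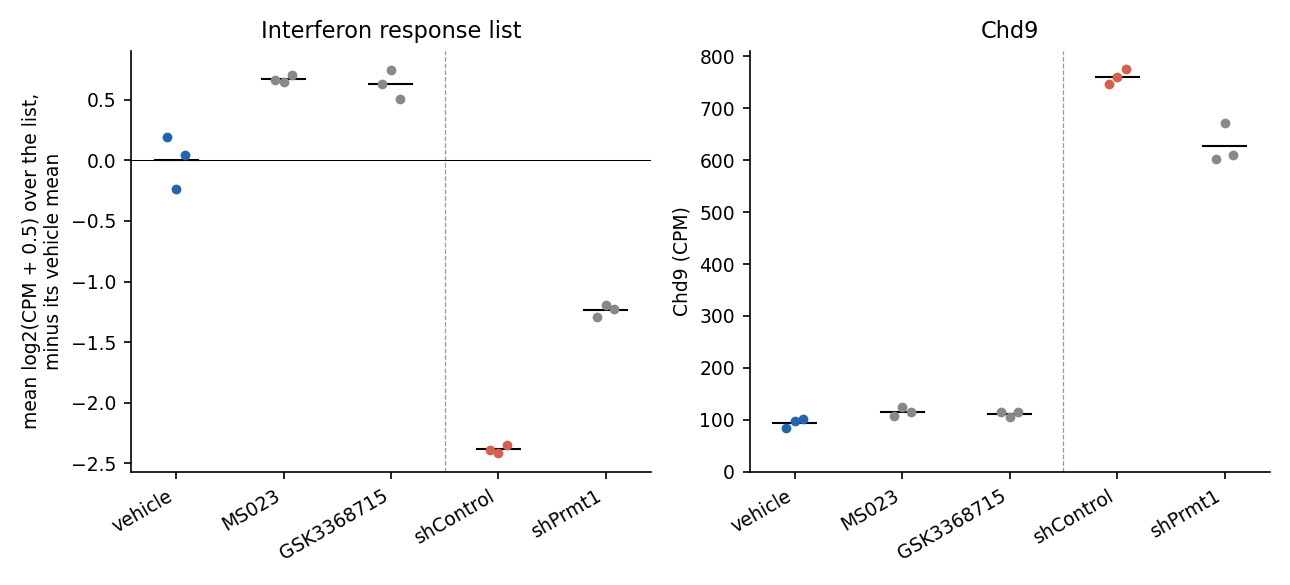
Left, mean log2(CPM + 0.5) over the 53 interferon genes in each library, minus the mean of the vehicle libraries. Right, Chd9 in CPM. Dots are libraries, bars are group means, and the dashed line divides the inhibitor from the knockdown experiment. The shControl libraries lie at -2.39, -2.41 and -2.35 on the left, and shPrmt1 at -1.29, -1.19 and -1.22.

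Outside the interferon list, 530 genes were called higher in vehicle, and 485 of these stood on none of the lists used here. The 530 include genes of MHC class I, described above as an output of interferon, so they do not count a difference apart from interferon. The matrix was 1 of the listed groups. Of 24 genes of collagens, laminins and integrins tested, 4 were called, all of them collagens higher in vehicle (5.01% of all genes), or 5 without vehicle 2. Col1a1 had 304, 315 and 307 CPM in vehicle and 102, 88.0 and 110.0 in shControl, 3.09-fold apart (adjusted p = 1.5e-06 from limma), while its partner chain Col1a2 had 2055, 1989 and 2046 against 1588, 1487 and 1679.6 CPM (-0.36) and was not called. Col3a1, Col6a1 and Col16a1 differed by -1.84, -1.36 and -1.18. Fn1, which encodes fibronectin, had 1092, 1392 and 1271 against 531, 524 and 509 CPM (-1.26, adjusted p = 1.0e-05). Vehicle 2 was the highest of its group in Col1a1, Col6a1 and Fn1, and the lowest in Col3a1 and Col16a1.

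The mesenchymal list gave a more divided result. Of 22 genes tested, the 4 called were Fn1, Snai2, Col1a1 and Col3a1, all higher in vehicle (5.01% of all genes), and the list median was -0.20. Snai2, which encodes the repressor SLUG, had 107, 75.9 and 102 CPM in vehicle and 34.6, 36.3 and 32.1 in shControl (-1.44, adjusted p = 3.6e-05 from limma). Twist1 stood at 34.9, 38.9 and 33.7 against 43.3, 42.9 and 44.9 CPM (0.29), and Zeb1 at 40.8, 48.8 and 40.3 against 62.4, 38.7 and 33.5, overlapping. The receptor Pdgfrb had 35.8, 26.5 and 31.5 against 12.1, 10.9 and 11.4 CPM, and the membrane glycoprotein Pdpn 33.5, 29.5 and 31.9 against 13.3, 12.6 and 13.6, both called (-1.4 and -1.23). Itga6 ran the other way, at 206, 244 and 217 against 334, 343 and 324 CPM (0.59, not called).

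On each list of stress-responsive genes, a minority of those tested was called. All 18 hypoxia genes tested had the higher mean in vehicle, as did 61.8% of all genes, with a median of -0.51, and 3 were called (5.01% of all genes), or 4 without vehicle 2. At an unadjusted p under 0.05 (limma), 17 of the 18 were higher in vehicle (38.8% of all genes). Car9, a carbonic anhydrase that hypoxia induces, had 28.3, 20.7 and 24.8 CPM in vehicle and 5.37, 3.9 and 3.67 in shControl (-2.39, adjusted p = 8.2e-06 from limma), Ndrg1 476, 379 and 408 against 182, 187 and 179.6, and Ero1a 836, 747 and 801 against 353, 395 and 350.2. The glycolytic enzymes Pkm, Ldha and Eno1 differed by -0.04, 0.08 and 0.03, and of 19 tested only the neuronal enolase Eno2 was called (-1.09), a share like the 5.01% of all genes. Its call was lost with median-ratio scaling and without vehicle 1 or shControl 1.

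In the ER stress and ATF4 list, 4 of 25 genes tested were called higher in vehicle (5.01% of all genes) and 1 higher in shControl (0.303%), with a median of -0.19. Ddit3, the factor CHOP, had 113, 49.9 and 87.0 CPM in vehicle and 23.7, 22.1 and 23.3 in shControl (-1.76, adjusted p = 4.4e-04 from limma), and Ppp1r15a, which restarts translation after stress, 231, 69.9 and 156 against 37.6, 33.7 and 33.5. In both, vehicle 2 lay well below vehicle 1 and 3 and still above each shControl library, and without it the differences were -2.09 for Ddit3 and -2.43 for Ppp1r15a. Trib3 and Aldh1l2 differed by -1.28 and -1.06, the latter call lost with TMM or median-ratio scaling, edgeR, DESeq2, or without vehicle 1. Atf4 itself had 748, 711 and 749 against 738, 688 and 747 CPM (-0.02, adjusted p = 0.747). Of the 25, 8 had the higher mean in shControl, among them the chaperone Hspa5 at 0.23. The call in that direction was Sdf2l1, an ER chaperone partner, at 14.1, 19.5 and 15.3 against 34.5, 34.8 and 34.0 CPM (1.07, a call lost without vehicle 1).

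Of 20 p53 targets tested, 4 were called, all higher in vehicle (5.01% of all genes), or 5 without vehicle 2, with a median of -0.17. Gadd45a, which stress induces by p53 and by other routes, had 103, 46.5 and 78.0 CPM in vehicle and 13.1, 14.1 and 12.7 in shControl (-2.40, adjusted p = 7.9e-05 from limma), or -2.71 without vehicle 2, and Trp53inp1 25.3, 19.1 and 24.3 against 5.74, 5.13 and 4.40. Btg2 and Plk2 differed by -1.37 and -1.05, and the latter call was lost with TMM or median-ratio scaling, edgeR, DESeq2, or without vehicle 1. The classical targets Cdkn1a (-0.03) and Mdm2 (-0.18) were not called. Among RAS-ERK output genes, the phosphatase gene Dusp1 was the only call of 20, a share like the 5.01% of all genes, with 31.9, 21.8 and 27.9 against 5.33, 5.27 and 5.87 CPM (-2.19, adjusted p = 5.6e-06), and the list median was -0.01.

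**Figure D5:**
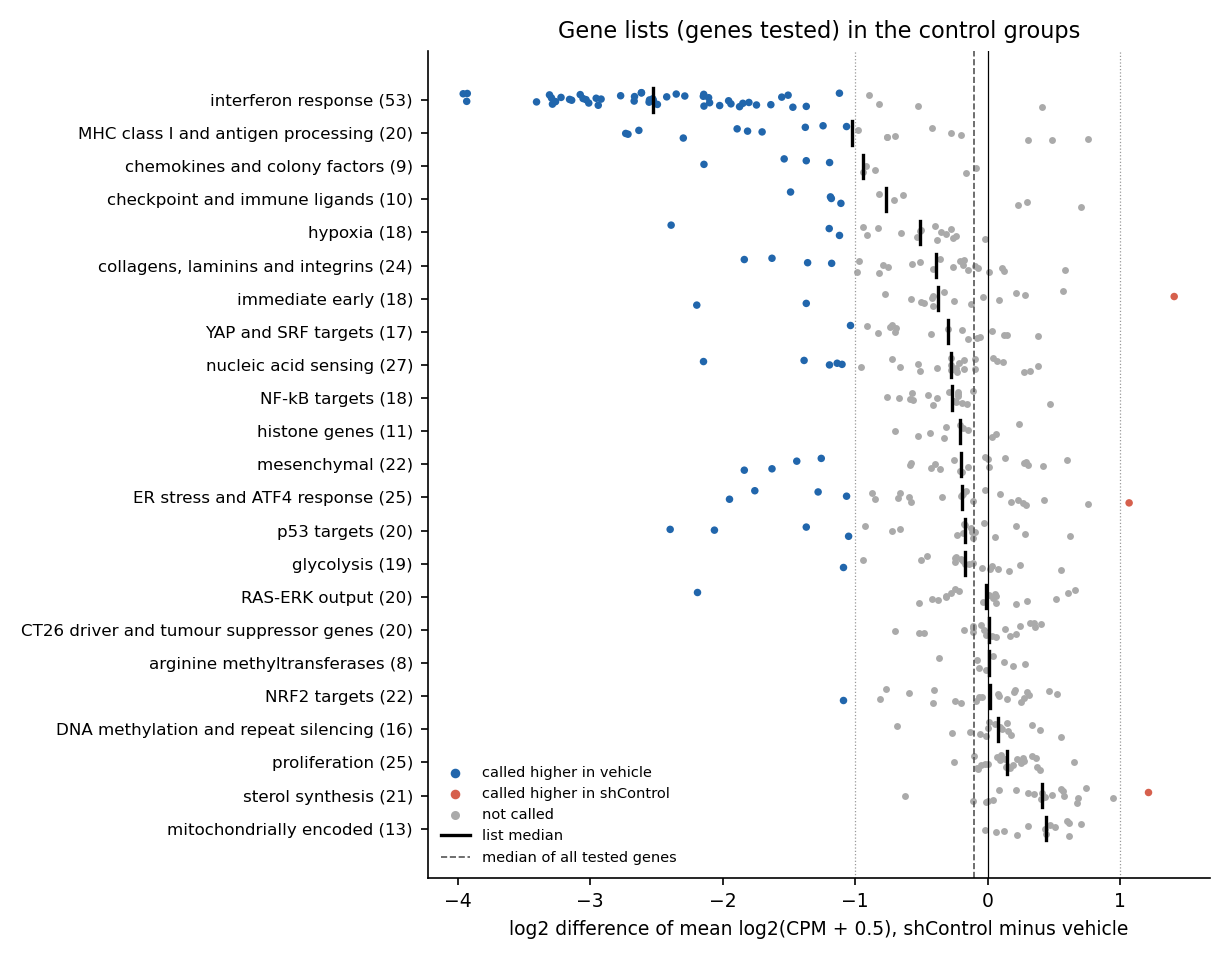
Log2 difference (shControl minus vehicle) of each gene tested, for the lists with at least 8 genes tested. Blue and red dots are called genes, grey dots are not called, black bars are list medians, the dashed line is the median of all genes, and dotted lines mark 2-fold. The interferon list has the lowest median, -2.52, and the mitochondrially encoded genes the highest, 0.44, which without vehicle 2 was 0.13 and below sterol synthesis at 0.45.

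In the other direction, Chd9 stood alone. Chd9 (ENSMUSG00000056608, chromosome 8, 90828352 to 91054516), a chromatin remodeller of the CHD family, had 84.7, 97.9 and 102 CPM in vehicle and 747, 759 and 776 in shControl, 8.02-fold higher (log2 difference 3.00, standard error 0.0715, adjusted p = 8.2e-08 from limma). It was the only gene at 4-fold or more in this direction. The level was 602, 671 and 609.7 CPM in shPrmt1 cells, 107, 124 and 115 with MS023 and 114, 106 and 116 with GSK3368715, so that both groups of the knockdown experiment were high and all 3 of the inhibitor experiment low. The next genes along the chromosome were not high in shControl, with Rbl2 at 45.3, 46.2 and 47.9 against 30.6, 33.2 and 29.8 CPM (-0.57) and Aktip at 37.6, 36.2 and 36.6 against 39.2, 38.7 and 36.8 (0.05). No other annotated transcript was at least 95% identical to Chd9 over 30% of its length. Gm45641, on the opposite strand, shares 196 bases of exon with it and was not analysed here.

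The next 9 protein-coding genes called, by size and with at least 10 CPM in shControl, differed by 1.09 to 1.6. Pop1, a protein of RNase P, had 32.3, 45.9 and 40.7 CPM in vehicle and 91.4, 90.7 and 92.0 in shControl (1.21, adjusted p = 6.0e-05 from limma), and Slc5a6, the vitamin transporter for biotin and pantothenate, 11.7, 15.4 and 13.6 against 29.7, 29.3 and 31.7. Ccnb1ip1, an E3 ligase known from meiosis, had 6.91, 13.3 and 10.6 against 23.2, 25.5 and 26.6 CPM, and Cytip, a binding partner of cytohesin, 3.9, 3.57 and 2.84 against 7.97, 14.1 and 8.23. The groups did not overlap in any of these. For 7 of the 9, shared sequence limits the value, and the sources used here do not say whether the counting used strand. Ahcy (1.6) with its copies Gm4737 and Gm9826 summed to a difference of 0.16, and Gm2000 with Rpl35 and 2 other similar genes to -0.05. Lbhd1 (1.30) shares 735 bases of exon with 1810009A15Rik, which differed by 0.03, and Gm45716 (1.23) shares 280 bases with Mmd, which differed by 0.63. Ccnb1ip1 shares 233 bases with Rpph1, which was not analysed here. On the opposite strand, Slc5a6 shares 396 bases with Atraid, which differed by -0.73, and Idi1 323 bases with Gm48574, which was not analysed here. The call of Gm2000 was lost with a pseudocount of 2 and without vehicle 3 or shControl 1.

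Idi1, an isomerase of the mevalonate pathway that makes sterols, was the 1 call among 21 sterol synthesis genes tested (0.303% of all genes were called higher in shControl). It had 59.6, 101 and 76.1 CPM in vehicle and 173, 193 and 169.9 in shControl (1.21, adjusted p = 3.6e-04 from limma). Of the 21, 18 had the higher mean in shControl, as did 38.2% of all genes, with a median of 0.41 against -0.11 over all genes. Hmgcs1 stood at 111, 180.0 and 142 against 231, 249.9 and 229 CPM. Hsd17b7 came near 2-fold (0.95) and was called with edgeR, with DESeq2 and without vehicle 2 (1.13), while Insig1, a brake on the pathway, differed by -0.11. In Idi1 and Hmgcs1, vehicle 2 was the highest vehicle library, and without it the difference of Idi1 was 1.4 and the list median 0.45, with 2 genes called.

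Transcripts encoded in mitochondria had a median of 0.44, the highest of the lists. Of the 13, 4 had an unadjusted p under 0.05 (limma), all higher in shControl, and none was called by limma, edgeR or DESeq2. Both the value and its rank rest on vehicle 2, without which the median was 0.13, below that of sterol synthesis. In mt-Co1, the vehicle libraries had 6069, 2762 and 5579 CPM and shControl 4530.3, 4807 and 4145, so that vehicle 1 and 3 were above, and vehicle 2 below, every shControl library. Of the 35 genes called higher in shControl, 32 stood on no list. They included Tfrc, the transferrin receptor, which was named after its value was seen, with 111, 245 and 170.1 CPM in vehicle and 323, 352 and 389 in shControl (1.08, adjusted p = 0.00421 from limma). The vehicle libraries of Tfrc spread over more than 2-fold, and its call was lost without vehicle 1.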

How the data were processed

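RNA of CT26 cells was sequenced as paired-end reads. Per the submitters' processing notes and the study's methods, reads were quantified with Salmon 1.4.0 (mm10). For each experiment the authors deposited a table of normalized counts, here treated as a signal, in which DESeq2 had scaled every library by its size factor. Each deposited value was a whole multiple of a constant of its library (tolerance 0.001) for 100% of 34432 genes, which gave whole reads. Dividing by the column total cancels the size factor, so the separately normalized tables were put on 1 scale (CPM). The authors also deposited tables of fold changes and p-values of their own comparisons, which were not used. Gene IDs were matched to GENCODE M21 (GRCm38) for 34415 genes. A list of nuclear and short RNAs was not used here.

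Tests used limma 3.58.1 in R 4.3.3 (lmFit, eBayes with trend) on log2(CPM + 0.5) with 3 libraries per group, for genes with at least 0.5 CPM in at least 3 of the 6, after a trial on simulated data. edgeR 4.0.16 and DESeq2 1.42.0 on the recovered reads were alternatives, as were other pseudocounts, filters, scalings, a thinning of reads to the smallest total, and leaving out each library. Copies were sought with blastn 2.17.0 (at least 95% identity over 30% of a transcript). Totals of 19077556 to 73450043 reads set the precision, and limits for genes without a read are 3 reads of a library's total and cover counting error only. No source used here names molecular identifiers. The series' design text calls the replicates biological.

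Named genes are the 10 protein-coding genes with the largest called difference in each direction (no overlap, at least 10 CPM in the higher group), the 15 highest per kilobase, the 10 with the smallest range, members of the lists described, and genes that limit a named value. The control groups and the lists were chosen with earlier results of these data known. Some genes of these lists are counted but not reported here by name.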

Additional observations from a re-analysis of the deposited data

How the results depend on the processing

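The direction of each named gene that was called held under all alternative settings run. Adding the reads of similar genes, a separate check, took Gm2000 from 1.09 to -0.05. The same sum brought Ahcy from 1.6 to 0.16 and Trex1 from -1.14 to -0.30. Calls near 2-fold depended on the settings. The count of 614 genes (579 higher in vehicle, 35 in shControl) became 344 (329 and 15) with a pseudocount of 2, and 389 (370 and 19) with a filter of 5 CPM, which tests fewer genes. It became 5886 (3998 and 1888) without a minimum fold and 112 (111 and 1) with a minimum log2 difference of 2, both by construction. The count higher in shControl was 74 with a pseudocount of 0.1. On the recovered reads, edgeR called 697 genes higher in vehicle and 106 in shControl, and DESeq2 651 and 112. TMM scaling gave 500 and 49 genes and median-ratio scaling 476 and 52, against 579 and 35. Leaving out each library gave 483 to 672 genes in all, 451 to 618 higher in vehicle and 29 to 54 higher in shControl, the last without vehicle 2. Leaving out a vehicle library also drops genes that pass the filter through vehicle alone. The interferon count ran from 47 to 49 without single libraries, and was 49 with TMM, edgeR and DESeq2. The distance between the groups was 0.456 with a pseudocount of 2, against 0.555. The cause of the other shifts was not tested.

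The replicate numbers are shared by both groups. Libraries of the same number correlated by 0.04, 0.16 and 0.09 in their deviations from the group means, and each library correlated best with its own number. With so few libraries these values cannot decide whether the numbers pair the libraries, and the main test used no pairing. With the replicate number as a block, 617 genes were called (581 and 36), 49 of them interferon genes.

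Genes under 0.5 CPM rest on few reads in the shControl libraries, the shallower group, and most were not tested. A call lost at the 2-fold minimum remains in the same direction. With 3 libraries of 1 experiment in each group, the tests cannot tell the experiment, the vector and the vehicle apart.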

Other observations

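Values by library are again those of vehicle 1, 2 and 3 and, after "against", of shControl 1, 2 and 3. Several further lists held few or no calls between the control groups. Of 22 NRF2 target genes tested, the groups did not overlap in 18 (60.8% of all genes), 9 in each direction. An unadjusted p under 0.05 (limma) was found in 15 (58.1% of all genes) and 1 was called, a share like the 5.01% of all genes called higher in vehicle. It was the glutathione transferase Gsta4, with 11, 9.83 and 10.5 CPM in vehicle and 4.21, 4.21 and 5.61 in shControl (-1.09, adjusted p = 2.1e-04 from limma), a call lost with a pseudocount of 2 and with median-ratio scaling. The ferritin genes Ftl1 and Fth1 differed by -0.42 and -0.20. None of 16 genes of DNA methylation and repeat silencing was called by limma, edgeR or DESeq2 (8 at an unadjusted p under 0.05), with a median of 0.08. The maintenance methyltransferase Dnmt1 had 245, 284 and 268 against 271, 263 and 269 CPM, the histone methyltransferase Setdb1 98.2, 98.3 and 105 against 101, 101 and 99.2, and the oxidase Tet2 32.4, 40.2 and 43.6 against 24.4, 23.8 and 22.9 (-0.69). None of 11 histone genes and of 5 genes on the sex chromosomes was called by limma, edgeR or DESeq2 (4 and 3 at an unadjusted p under 0.05).

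Of 18 immediate early genes tested, 2 were called higher in vehicle (Dusp1 and Btg2, 5.01% of all genes) and 1 higher in shControl (0.303%), with 13 higher means in vehicle and a median of -0.37. Egr3 was called higher in shControl at 1.44, 2.67 and 2.17 CPM in vehicle and 5.74, 7.39 and 5.71 in shControl (1.41, adjusted p = 4.3e-04 from limma), while its relative Egr1 stood at 38.5, 37.3 and 34.5 against 44.4, 44.9 and 44.8 CPM (0.28). Fos was under 0.72 CPM in all 6 libraries. Of 17 YAP and SRF target genes tested, 11 were higher in vehicle at an unadjusted p under 0.05 (limma; 38.8% of all genes), with a median of -0.30, and 1 was called (5.01% of all genes). This was Ccn1 (158, 158 and 147 against 76.0, 74.9 and 73.9 CPM, -1.04), a call lost with TMM or median-ratio scaling, edgeR and DESeq2, and Ankrd1 stood at 216, 171 and 202 against 98.7, 109 and 103 CPM (-0.91, not called, or -1.01 and called without vehicle 2). Id2, an inhibitor of basic helix-loop-helix factors named after its value was seen, was higher in shControl, with 19.4, 29.4 and 22.2 against 47.2, 52.2 and 50.1 CPM (1.08), and its call was lost without vehicle 1.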
